A study of Saccharomyces cerevisiae with 6 samples.

Results

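The genes of branched-chain amino acid synthesis in budding yeast, Saccharomyces cerevisiae, were examined in meiotic cultures of wild type, a bas1 mutant and an ino4 mutant. The 10 members are ILV1, ILV2, ILV3, ILV5, LEU1, LEU2, LEU3, LEU4, BAT1 and BAT2, taken by gene symbol from a table of 6932 entries. All 10 were found, each as 1 entry, and all 10 passed the filter on low values that left 6153 entries for comparison. RNA was sequenced from 6 samples, 2 per genotype, taken at 4 h in meiosis from cells grown for 13.5 to 14 h at 30 °C in rich acetate medium and then moved to 2% potassium acetate. All groups shared this treatment, and the labels name the groups only as WT, bas1 and ino4. The sources used here give neither the alleles nor the strain background nor the auxotrophic markers. Each genotype has 1 FPKM value per gene, the authors' combined value of its samples (fragments per kilobase of each gene's model, scaled by the number mapped). The spread between samples is therefore unknown, no difference has a replicate check, and no test was made.

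Isoleucine, valine and leucine are built from pyruvate and threonine, largely inside mitochondria, by enzymes that the isoleucine and valine branches share. Leucine synthesis leaves the valine branch through isopropylmalate, whose later steps run in the cytosol. Isopropylmalate is also the signal for Leu3, a zinc cluster protein that activates leucine genes when it binds this intermediate and represses them when it does not. Gcn4, the activator of the general amino acid control, acts on many of the same promoters. Bas1, a Myb-related activator of purine and histidine genes, recognizes the same TGACTC core as Gcn4. Ino4 activates phospholipid genes as a dimer with Ino2.

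Promoter stretches of the 3 members that hold the Leu3 motif are shown because these genes differed in level between the genotypes. The motif searched was CCGGNNCCGG, a palindrome in its fixed letters, on both strands of the window from 250 bases before to 50 bases after each start codon's first base in the RefSeq R64 genome. LEU1 at chrVII:478840-478889 (minus strand), LEU2 at chrIII:91106-91155 (plus strand) and BAT1 at chrVIII:517341-517414 (plus strand) read as follows 5′ to 3′, with matches in capitals. The earlier capitals in BAT1 mark a TGACTC match.
LEU1: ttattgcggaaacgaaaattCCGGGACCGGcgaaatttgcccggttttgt
LEU2: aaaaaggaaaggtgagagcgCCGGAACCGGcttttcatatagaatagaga
BAT1: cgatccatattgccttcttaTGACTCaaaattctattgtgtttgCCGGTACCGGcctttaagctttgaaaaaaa
The motif begins 217 bases before the start in LEU1, 198 in LEU2 and 147 in BAT1. It was found in 8 of 6001 windows of protein-coding genes, or 0.133%, and 3 of those 8 belong to members.

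TGACTC, the shared Gcn4 and Bas1 core, was found on either strand in 6 of the 10 member windows and in 7.98% of all windows. Besides BAT1 these were ILV1, ILV3, ILV5, LEU3 and LEU4. Stretches of LEU4 at chrXIV:426830-426875 (minus strand), ILV5 at chrXII:839368-839413 (minus strand) and ILV1 at chrV:328324-328369 (plus strand) are given to set a gene that was lower in bas1 beside genes close to WT, with the core in capitals (in ILV1 on the opposite strand).
LEU4: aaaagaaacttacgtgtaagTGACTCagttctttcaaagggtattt
ILV5: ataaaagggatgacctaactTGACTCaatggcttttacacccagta
ILV1: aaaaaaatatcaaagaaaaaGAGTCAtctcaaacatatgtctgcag
The core begins 101, 140 and 133 bases before the start in LEU4, ILV5 and ILV1. CATGTG, the core of the Ino2/Ino4 site, was found in 0 of the 10 member windows and in 6.93% of all windows. These letter matches describe the windows and do not show binding.

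BAS1 had an FPKM of 19.4 (WT), 21.1 (ino4) and 0.00985 (bas1), and INO4 had 307 (WT), 271 (bas1) and 0.339 (ino4), so each targeted transcript was near 0 in its own mutant alone. All 10 early meiotic markers were present in every genotype, the lowest being the break-formation gene SPO11 with 83.9, 104 and 102 in WT, bas1 and ino4. They summed to 18502 (WT), 20141 (bas1) and 17578 (ino4), sums to which IME1 gives much. By median log2 difference from WT they were at 0.19 in bas1 (9 positive, 1 negative) and 0.11 in ino4 (6 positive, 4 negative). None was past 2-fold, against 3.32% of all entries compared in bas1 and 2.44% in ino4. IME1, the master inducer of meiosis, had 7919, 7959 and 6261 in WT, bas1 and ino4, and IME2, a meiotic kinase gene, had 1841, 2511 and 1834. The 10 middle sporulation markers summed to 3286 (WT), 5658 (bas1) and 1755 (ino4), sums to which SPS4 gives much. In bas1 4 were at least 2-fold higher (CDC5, SPO21, SPS1 and SSP1), against 0.975% of all entries. In ino4 4 were at least 2-fold lower (SPS1, SPS2, SPS4 and SSP2), against 1.76%. SPS1, a kinase gene of spore formation, had 72.2, 157 and 26.7 in WT, bas1 and ino4, and CDC5, the polo kinase gene, had 144, 409 and 112. SPS2 had 372, 687 and 148, and SSP1, of the prospore membrane edge, had 125, 268 and 73.4. The 8 vegetative G1 markers summed to 1133 (WT), 635 (bas1) and 1164 (ino4), sums to which CTS1 and DSE2 give much. By median they were at -0.74 in bas1 (1 positive, 7 negative) and 0.01 in ino4 (4 positive, 4 negative). In bas1 2 were at least 2-fold lower, against 2.34% of all entries. These were the cyclin gene CLN1, with 24.1, 10.3 and 24.4, and the chitinase gene CTS1, with 400.3, 183 and 418. The cyclin gene CLN2 was the 1 that was higher in bas1, with 24.4, 27.1 and 20.4. No marker of these lists was listed at 0. These values move with the genotypes, and their part in the differences below was not tested. In such bulk samples, fewer cells of a type and less RNA per cell cannot be told apart.

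In WT the members spanned a moderate range. BAT2 was highest with an FPKM of 200.1, followed by LEU1 (124), LEU4 (107), ILV5 (102), ILV1 (61.2), ILV2 (56.7), BAT1 (49.2), LEU2 (48.4), ILV3 (46.2) and LEU3 (26.7). LEU1, LEU4 and ILV5 differed from their next neighbour in this order by ratios of 1.16 and 1.05. ILV1 exceeded ILV2 by 1.08, ILV2 exceeded BAT1 by 1.15, and BAT1, LEU2 and ILV3 differed by 1.02 and 1.05. The order within each of these runs is therefore not firm without a known spread. BAT2 lay above 82.7% of all entries compared and LEU3 above 28.1%. In ino4 LEU2 moved from rank 8 to rank 3, and in bas1 to rank 4, while BAT2 and LEU1 remained first and second in every genotype. LEU1 exceeded LEU2 in ino4 by a ratio of only 1.01. LEU2 exceeded LEU4, the next lower member, by 1.12 in ino4 and 1.16 in bas1. The ranks of LEU2 in the mutants are therefore not firm either.

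**Figure D1:**
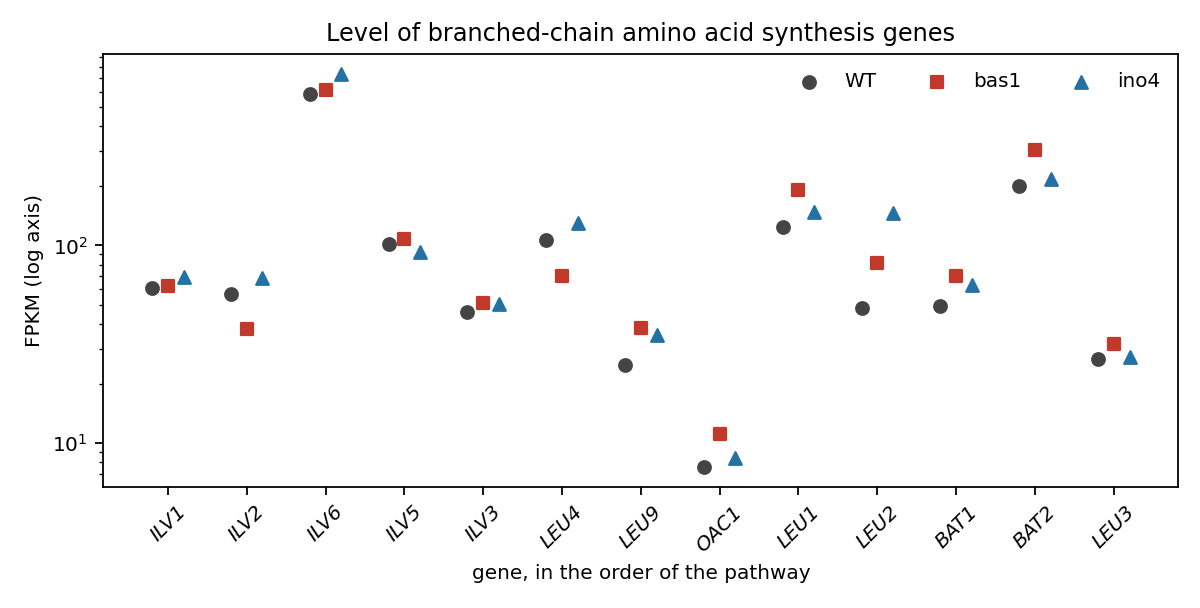
FPKM on a log axis for the 10 members and for ILV6, LEU9 and OAC1, in pathway order with the regulator LEU3 last. Each point is the authors' combined value of a genotype (circles WT, squares bas1, triangles ino4), with no error bars because the table holds none. LEU2 is at 48.4 (WT), 81.1 (bas1) and 145 (ino4), while ILV2 and LEU4 have their lowest point in bas1.

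In bas1 against WT, members lay on both sides of WT, all within 2-fold. The early leucine gene LEU4 and the acetolactate synthase gene ILV2 were lower in bas1, whereas LEU1, LEU2, BAT1 and BAT2 were higher and ILV1, ILV3 and ILV5 were close to WT. Differences are given on the log2(FPKM + 1) scale, and a gene counts as 2-fold apart when the difference is 1 or more in size. By that rule 0 of 10 members were apart, against 3.32% of all entries compared (0.975% higher and 2.34% lower). At 1.5-fold, 3 members were higher (background 3.98%) and 1 was lower (background 7.33%). The members' median difference was 0.19, beside 0.01 over all entries, with 8 positive and 2 negative values.

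Of the genes that isoleucine and valine share, ILV2 encodes the catalytic subunit of acetolactate synthase, the first shared step (YMR108W, sacCer2 chromosome XIII, 484083 to 486146). Its FPKM was 56.7 (WT), 37.9 (bas1) and 68.3 (ino4). It was lowest in bas1, where its difference from WT of -0.57 lay just short of the 1.5-fold line at 0.58. At 7.72% of entries the difference in bas1 was more negative than that of ILV2. ILV5, the reductoisomerase that also helps maintain mitochondrial DNA (YLR355C, chromosome XII, 838065 to 839252), had 102 (WT), 107 (bas1) and 92.7 (ino4). ILV3, the iron-sulfur dehydratase of the next step (YJR016C, chromosome X, 464444 to 466201), had 46.2, 51.0 and 50.4. ILV1, the threonine deaminase that opens the isoleucine branch (YER086W, chromosome V, 328473 to 330203), had 61.2, 62.0 and 69.2. The values of ILV1, ILV3 and ILV5 differed between bas1 and WT by 0.02 to 0.14 on the log2 scale, and those of ILV2 by more.

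ILV6, a gene outside the 10, encodes the regulatory subunit that gives acetolactate synthase its valine feedback. It had an FPKM of 585 (WT), 612 (bas1) and 738 (ino4), above every member. The ratio of ILV6 to ILV2, both per length, was 10.3 (WT), 10.8 (ino4) and 16.2 (bas1). The subunit genes thus stood further apart in bas1 than in the other genotypes, through the lower ILV2 value.

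LEU4 encodes the main isopropylmalate synthase, the committed step of leucine synthesis (YNL104C, chromosome XIV, 424897 to 426810). Its FPKM was 107 (WT), 70.0 (bas1) and 130 (ino4), so bas1 was 1.53-fold below WT (difference -0.60). Its entry shares its position with YNL103W-A, listed at 0 in every genotype, and is longer than the R64 gene, which makes its level less certain than those of the other members. LEU9, the paralog of LEU4 and also a synthase gene, had 24.9 (WT), 38.4 (bas1) and 35.1 (ino4), and its entry overlaps another too. LEU4 was lower in bas1 and LEU9 higher, and the ratio of LEU4 to LEU9 was 4.29 (WT), 3.70 (ino4) and 1.82 (bas1). Of the 30-base words in LEU4, 1.91% also occur in LEU9, so few exact stretches of that length are shared. Scattered mismatches remove such words, so this share does not measure how alike the 2 genes are. OAC1, the mitochondrial carrier that exports isopropylmalate, had 7.56 (WT), 11.1 (bas1) and 8.37 (ino4).

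LEU1, the isopropylmalate isomerase of the cytosol (YGL009C, chromosome VII, 476318 to 478657), had an FPKM of 124 (WT), 190.0 (bas1) and 147 (ino4). It was highest in bas1, 1.53-fold above WT. BAT2, the cytosolic aminotransferase of the last step (YJR148W, chromosome X, 705735 to 706865), had 200.1 (WT), 305 (bas1) and 218 (ino4), also 1.53-fold above WT in bas1. BAT1, its mitochondrial counterpart (YHR208W, chromosome VIII, 517532 to 518713), had 49.2, 69.9 and 63.3, and was 1.42-fold higher in bas1 and 1.29-fold higher in ino4. Both aminotransferase genes were highest in bas1, and BAT2 exceeded BAT1 by ratios of 4.07 (WT), 4.37 (bas1) and 3.44 (ino4). No 30-base word of BAT1 or BAT2 occurs in another gene.

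The regulator LEU3 (YLR451W, chromosome XII, 1036090 to 1038750) had an FPKM of 26.7 (WT), 31.8 (bas1) and 27.3 (ino4). It was the lowest member in every genotype and differed by 0.24 in bas1 and 0.03 in ino4. GCN4 had 1843, 1759 and 1679, with differences of -0.07 and -0.13. Transcripts of both activators were thus within 1.2-fold of WT in both mutants, which says nothing of the activity of their proteins.

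**Figure D2:**
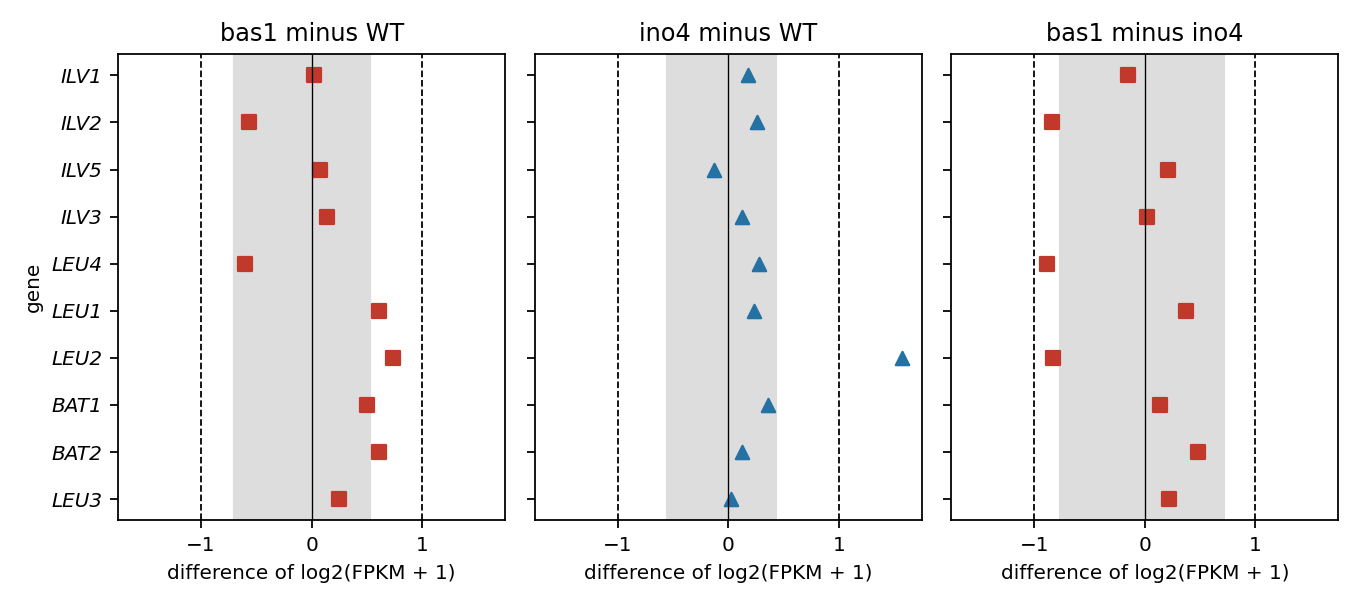
Difference of log2(FPKM + 1) for each member in the 3 comparisons, 1 point per gene. Dashed lines mark the 2-fold rule and grey bands the central 90% of all 6153 entries compared (-0.70 to 0.53, -0.56 to 0.43 and -0.77 to 0.71 from left to right). LEU2 in ino4 minus WT, at 1.57, is the only member past a dashed line. The first 2 panels share the WT values.

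The comparison of ino4 with WT gave small differences for every member other than LEU2. By the 2-fold rule 1 of 10 members was apart, against 2.44% of all entries, and it was higher (background 0.683% higher and 1.76% lower). Without LEU2 the differences ran from -0.13 at ILV5 to 0.36 at BAT1, and their median was 0.18 beside 0.00 over all entries. LEU4 and ILV2, lower in bas1, were 1.22-fold and 1.20-fold higher in ino4.

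LEU2 encodes isopropylmalate dehydrogenase, the third enzyme of the leucine branch and a common selectable marker in yeast (YCL018W, chromosome III, 91324 to 92418). Its FPKM was 48.4 (WT), 81.1 (bas1) and 145 (ino4). WT was lowest and ino4 highest, at 1.68-fold of WT in bas1 and 3.00-fold in ino4, with log2 differences of 0.73 and 1.57. Among 6153 entries, 17 including LEU2 had a difference in ino4 at least as high, or 0.276%. Among the 4088 entries that were at least 300 bp long, had a mean FPKM of at least 20 and overlapped no other entry, LEU2 was the highest, and YAL065C, named after its values were seen, came next with 0.99.

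Set against LEU1, which catalyses the step before it, LEU2 differed far more in ino4 than in bas1. The ratio of LEU2 to LEU1 was 0.389 (WT), 0.427 (bas1) and 0.989 (ino4). In bas1 the LEU2 difference exceeded that of LEU1 by 0.13, and in ino4 by 1.33. The ratio of LEU2 to LEU3 was 1.81 (WT), 2.55 (bas1) and 5.32 (ino4), while that of LEU1 to LEU3 was 4.65, 5.97 and 5.38. LEU2 in ino4 therefore did not keep the proportion to LEU1 that it had in WT and bas1.

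The neighbours of LEU2 on chromosome III had smaller differences in ino4. NFS1, the cysteine desulfurase gene whose entry begins 358 bases beyond that of LEU2, had an FPKM of 252 (WT), 242 (bas1) and 293 (ino4). DCC1, a gene of sister chromatid cohesion, had 36.8, 44.9 and 45.8. On the other side, SUP53 was listed at 0 in every genotype and YCL019W, part of a transposon, was under an FPKM of 1, so neither could be compared. Of 9 entries compared within 10 kb of LEU2, 0 were 2-fold apart in any comparison, and their ino4 differences ran from -0.12 to 0.40. Over all entries, 3.32% (bas1 minus WT), 2.44% (ino4 minus WT) and 5.56% (bas1 minus ino4) were apart. Among the 9, KCC4, YCL022C and YCL023C share the same position, with FPKM values from 2.72 to 7.76, and the 0.40 belongs to YCL023C. YCL021W-A, named after its values were seen, was 1.65-fold higher in bas1. Whether the strains carry different alleles at LEU2 cannot be told apart from the genotype in these data.

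**Figure D3:**
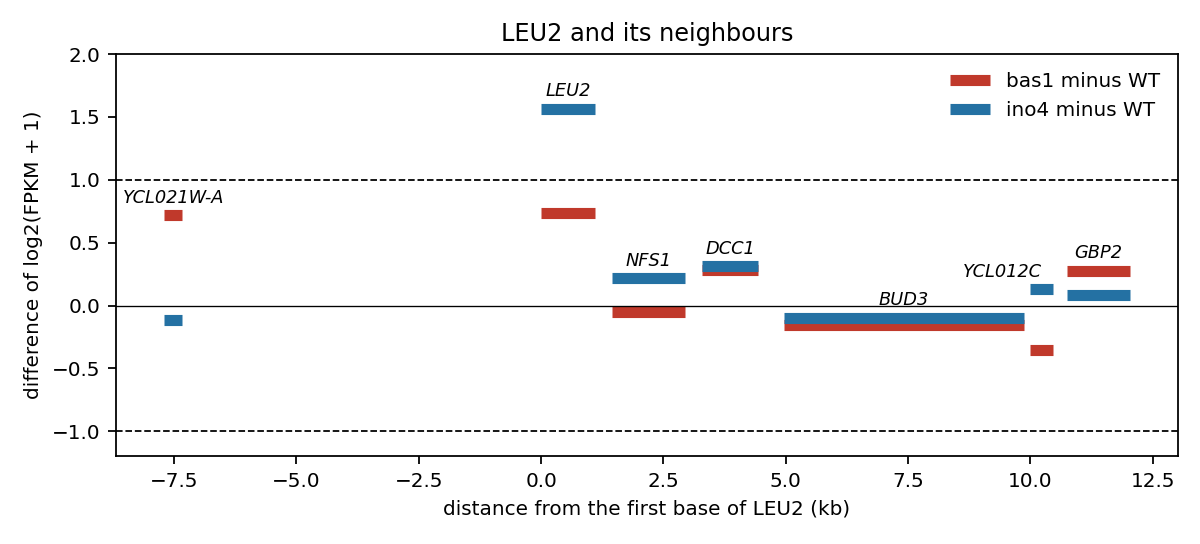
Difference of log2(FPKM + 1) from WT for LEU2 and the entries within 10 kb of it that were compared and overlap no other, each drawn as a bar over its length at its distance in kb from the first base of LEU2. Red bars are bas1 minus WT, blue bars ino4 minus WT, and dashed lines mark the 2-fold rule. The blue LEU2 bar at 1.57 is the single bar beyond a dashed line, and those of NFS1 and DCC1 lie at 0.22 and 0.31.

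By the pair of differences from WT in the 3 genotypes, the entries most like LEU2 among 4087 candidates were YNR014W, YPR015C and RAD59, a recombination gene. Their Euclidean distances from LEU2 were 0.76, 0.85 and 0.86 on the log2 scale, so even the nearest was not close. YNR014W had an FPKM of 103 (WT), 187 (bas1) and 181 (ino4). YPR015C had 49.6, 86.5 and 82.0, and RAD59 had 46.8, 62.7 and 80.4. Each was higher in both mutants than in WT, but these entries were picked by closeness to LEU2 in those same differences. Their smaller rise in ino4 was also set beforehand, because LEU2 had the highest ino4 difference of that pool.

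Set directly beside each other, the mutants differed most at LEU4, ILV2 and LEU2. LEU4 was 1.86-fold, ILV2 1.80-fold and LEU2 1.79-fold lower in bas1 than in ino4, with differences of -0.88, -0.84 and -0.83. By the 2-fold rule 0 of 10 members were apart, against 5.56% of all entries (2.78% in each direction), and by 1.5-fold these 3 were lower, against a background of 8.22%. The members' median was 0.08, beside 0.00 over all entries. In the other direction BAT2 was 1.40-fold and LEU1 1.29-fold higher in bas1. The summed FPKM of the members was 821 (WT), 1006 (bas1) and 1011 (ino4), or 773, 925 and 866 without LEU2. The similar sums of the mutants thus came from different genes, mainly BAT2 and LEU1 in bas1 and LEU2 in ino4.

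The 8 genes whose windows hold the Leu3 motif, a group set by sequence and not by level, are BAT1, LEU1 and LEU2 and, outside the pathway, BRO1, DRE2, FSF1, GAT1 and NPA3, named because the count is small. In bas1 minus WT, 7 of the 8 were positive, against 3112 of all 6153 entries, with the members at 0.50, 0.61 and 0.73 and the others from -0.11 at NPA3 to 0.38 at DRE2. In ino4 minus WT all 8 were positive, against 3042 of 6153 entries, with LEU2 at 1.57 and the others from 0.05 at NPA3 to 0.36 at BAT1. Both counts use the same WT values. Other known Leu3 targets, GDH1, BAP2, OAC1 and MAE1, are not among the 8, so the group does not stand for all Leu3 targets. Their differences were 0.20, 1.29, 0.50 and -0.17 in bas1, and 0.04, -0.27, 0.13 and 0.34 in ino4. LEU4 and ILV2, the members lower in bas1, also lack the motif in their windows. NPA3 holds its match inside the coding sequence. Members with a TGACTC match ran from -0.60 at LEU4 to 0.50 at BAT1, and those without from -0.57 at ILV2 to 0.73 at LEU2, so neither kind went in a single direction in bas1.

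Several genes around the pathway, unlike the members, passed the 2-fold rule in bas1. BAP2, a plasma membrane permease for branched-chain amino acids and a known Leu3 target, had an FPKM of 27.5 (WT), 68.8 (bas1) and 22.7 (ino4), and was 2.51-fold higher in bas1. TAT1, a permease for tyrosine and branched-chain amino acids, had 14.4, 29.0 and 13.8. Its plain ratio of bas1 over WT was 2.01, but its difference of 0.96, which the pseudocount shrinks, fell just short of the 2-fold rule. In bas1 minus ino4 its difference of 1.02 was past the rule. GAP1, the general amino acid permease, went the other way with 521, 250.5 and 586. Of 8 uptake and sensing genes, 1 was at least 2-fold higher in bas1 and 1 lower by that rule, and 0 were apart in ino4. Over all entries compared, 0.975% were higher and 2.34% lower in bas1, and 2.44% were apart in ino4. The list medians were 0.17 in bas1 and 0.01 in ino4. BAP2 and GAP1 lay on opposite sides of WT in bas1.

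On the side of supply and breakdown, CHA1, the catabolic serine and threonine deaminase that parallels Ilv1, had an FPKM of 47.7 (WT), 13.1 (bas1) and 59.4 (ino4). It was 3.65-fold lower in bas1, whereas ILV1 differed by 0.02. PDC1, the main pyruvate decarboxylase gene, had 751, 297 and 747, and PDC6, a minor isozyme gene, had 60.1, 33.6 and 70.5. Of the 30-base words in PDC1, 3.79% also occur in PDC5, and of those in PDC6, 0.722%. Of 6 breakdown genes, CHA1 and PDC1 were at least 2-fold lower in bas1 and 0 were apart in ino4, with medians of -0.31 and 0.18. Over all entries compared, 2.34% were lower in bas1 and 2.44% were apart in ino4. ARO10, a decarboxylase gene of the Ehrlich pathway, had 294, 343 and 284.

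Threonine, the precursor of isoleucine, is made by the HOM and THR genes. Of these 5 genes 0 were apart in either mutant, against 3.32% of all entries in bas1 and 2.44% in ino4. The medians were -0.05 in bas1 and -0.02 in ino4. HOM6, homoserine dehydrogenase, had an FPKM of 106 (WT), 75.1 (bas1) and 105 (ino4), and THR1, homoserine kinase, had 103, 94.1 and 113. Of the 3 further synthesis genes, ILV6, LEU9 and OAC1, 0 were 2-fold apart, and all were higher than WT in both mutants, with medians of 0.50 in bas1 and 0.33 in ino4.

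Of 20 other Gcn4 targets compared, from histidine, arginine, lysine, tryptophan, aromatic and serine synthesis, 0 were 2-fold apart in bas1 and 1 was lower in ino4. Over all entries, 3.32% were apart in bas1 and 1.76% were lower in ino4. The median of the 20 targets was -0.04 in bas1, with 8 positive and 12 negative values, and 0.12 in ino4. ARG4, argininosuccinate lyase and also used as a marker, was the gene apart, with 171 (WT), 150.0 (bas1) and 81.7 (ino4). The other known Leu3 targets GDH1, BAP2, OAC1 and MAE1 had a median of 0.35 in bas1 and 0.09 in ino4, and of these 4 only BAP2 was 2-fold apart. BAP2 and OAC1 are also counted in the lists above.

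**Figure D4:**
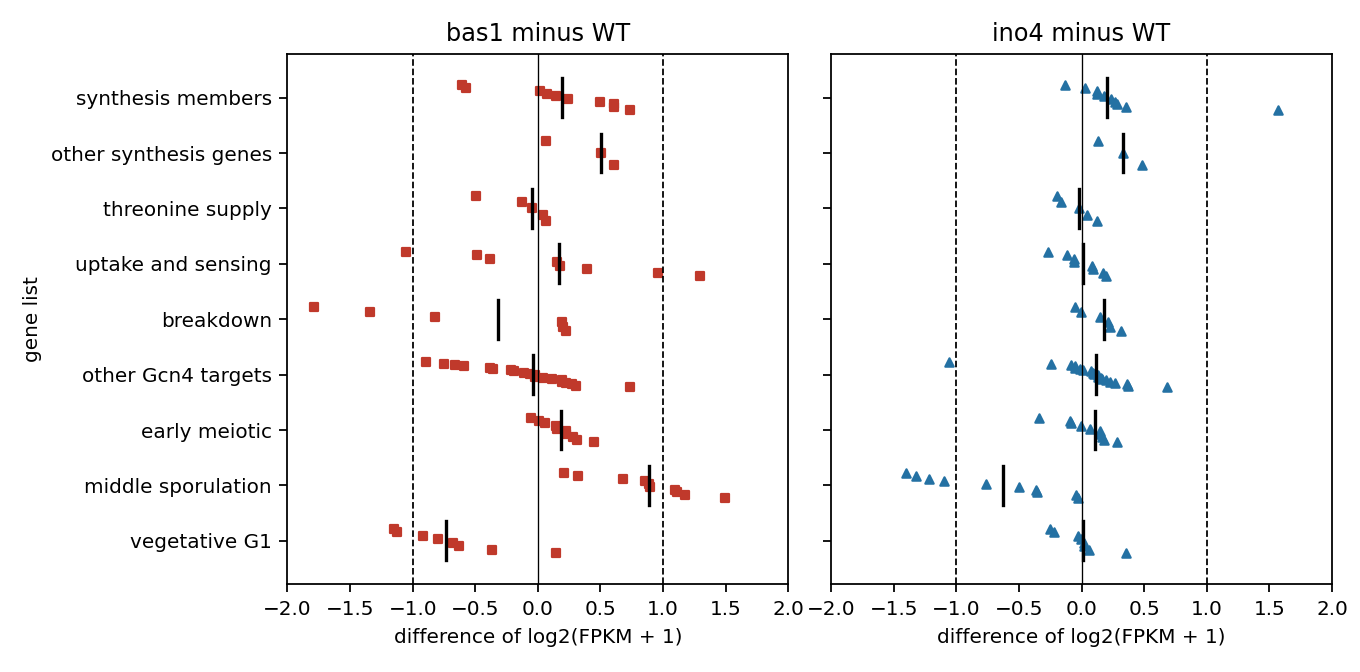
Difference of log2(FPKM + 1) from WT for each gene of 9 lists, in bas1 (left, squares) and ino4 (right, triangles). Each point is a gene, black bars are list medians and dashed lines mark the 2-fold rule. Both panels share the WT values. The synthesis members have medians of 0.19 and 0.21, and the middle sporulation genes 0.89 and -0.63.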

How the data were processed

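RNA sequencing of 6 samples in 3 genotypes was deposited as a table of FPKM values made by the authors, 1 column per genotype per the file headers. STAR, Cufflinks and the build sacCer2 are named, without versions, in the submitters' processing notes. The way samples were pooled, strand use and read numbers are not given in those sources. FPKM times length came out whole, within 0.05 reads at the best unit, for 16.3% to 17.7% of 300 low values, where chance gives 10% for a fixed unit. Reads were therefore not recovered, and depth is unknown.

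Entries above 0 in all 3 genotypes and reaching an FPKM of 1 in any of them were compared as differences of log2(FPKM + 1), with a pseudocount of 1, using Python 3.11.15 and pandas 2.3.3. The pseudocount shrinks differences of weakly expressed genes. A fold is a plain FPKM ratio. The planned test needs a value per sample, so these values are described instead, as planned for such a table. The steps were also run on simulated data with large known changes in well expressed genes and a set noise. Such a run checks the code only and says nothing of the spread between these samples or of small differences. Table positions are sacCer2, counted from 1. Promoters come from RefSeq R64 by gene symbol, and 9 of 10 members have the same length there. Of 99 list genes 98 were matched, and HIS3 is part of a merged entry.

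The members and lists were chosen with earlier results of these data known. Named genes were the members, ILV6, LEU9, OAC1, GCN4, BAS1, INO4, the neighbours of LEU2, the 3 entries nearest to it in pattern, and from each list the genes past 2-fold (at most 4, or the 2 largest differences where none was). Genes outside this rule (ARO10, BRO1 and others) are given for context. Alternatives were other pseudocounts, filters, scalings, a 1.5-fold rule, entries without overlap and the members without LEU2.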

Additional observations from a re-analysis of the deposited data

How the results depend on the processing

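Other pseudocounts and scalings, 5 alternatives in all, gave 150 recomputed member differences, of which 0 changed sign and 0 crossed the 2-fold line, with a largest shift of 0.073. The other 5 alternatives (filters, entries without overlap, the 1.5-fold rule and leaving out LEU2) cannot alter a gene's own difference, so they say nothing of its stability. At 1.5-fold, the count of members apart became 4 for bas1 minus WT and 3 for bas1 minus ino4, from 0 in each. Leaving out LEU2 took the count for ino4 minus WT from 1 to 0. LEU4 has no value among entries that overlap no other. The LEU2 difference in ino4 ranged from 1.49 to 1.58. No paired analysis was possible because the table holds 1 combined value per genotype, and leaving out each replicate was not run for the same reason. Without depth or replicates, no error can be given for any member.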

Other observations

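The pantothenate branch draws on ketoisovalerate, an intermediate of valine synthesis. ECM31, which takes up that intermediate, had an FPKM of 6.35 (WT), 4.10 (bas1) and 8.57 (ino4), and PAN5 had 59.4, 59.6 and 69.9. Of the 3 branch genes 0 were 2-fold apart, with medians of -0.21 in bas1 and 0.23 in ino4. Of 10 loci often used as markers, LEU2 and ARG4 were 2-fold apart in ino4, in opposite directions. MET15 was lower in bas1, with 43.7 (WT), 20.6 (bas1) and 57.9 (ino4). Over all entries, 3.32% were apart in bas1 (2.34% lower) and 2.44% in ino4. The MET15 entry overlaps another. The marker loci had medians of -0.23 in bas1 and -0.01 in ino4.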
